A study of Mus musculus with 9 samples.

Results

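The 10 genes described here encode ion channels of transporting epithelia and of the contractile wall around them: the chloride channels Cftr and Ano1, the ATP-sensitive potassium channel genes Kcnj11, Kcnj8, Abcc8 and Abcc9, the epithelial sodium channel genes Scnn1a, Scnn1b and Scnn1g, and the calcium channel Trpv6. They were taken by symbol, not by value, from a table of 24346 genes, and all 10 were found. The tissue was mouse IS-caput epididymis, the initial segment (IS) together with the caput, from males labelled 14 weeks old. Nicol+/- mice carried a single copy of a Nicol-null allele made by CRISPR/Cas9 on a B6D2F1 background, which removes the coding sequence of this small secreted protein (labels spell the gene Nicole, and the table lists it as Gm1673). Nicol-/- mice carried that deletion on both copies, and Ros1-/- mice lacked the receptor tyrosine kinase Ros1 on both copies. There were 3 libraries of each genotype, while the series' own design text speaks of 4. No Ros1+/- or wild-type library was analysed here, so both knockouts were set against the same 3 Nicol+/- libraries, which themselves carry a null allele. The labels do not say whether each library came from its own animal, so the spread behind each p-value is that of libraries and may be technical.

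The lumen of the epididymis is a sealed compartment whose fluid is set by its epithelium. Sodium and water are taken up, chloride and bicarbonate are moved by CFTR and exchangers, and calcium is drawn out of the lumen by TRPV6, without which mouse sperm lose fertilizing ability. Testicular factors that reach the initial segment through the lumen act on ROS1 and maintain its tall principal cells, a route called lumicrine signalling. The question the libraries address is which transcripts of this tissue depend on NICOL and ROS1.

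Estimated depth ran from 8189628 to 16595570 reads per library. Gm1673 was at 6.05 to 9.09 RPKM (a read density corrected for exon length and for sequencing depth) in Nicol+/-, was listed at 0 in all 3 Nicol-/- libraries and stood at 16.6 to 19.6 in Ros1-/-. Ros1 was at 40.7 to 48.0 RPKM in Nicol+/-, at 16.8 to 24.7 in Nicol-/- and at 8.06 to 9.32 in Ros1-/-, so its transcript was reduced but not lost in the knockout. Of 10 markers of principal cells, 8 were lower in Nicol-/- and 7 in Ros1-/-. Ros1 is itself one of these markers, and its fall in Ros1-/- is set by the genotype. Of the other 9, 7 were lower in Nicol-/- and 6 in Ros1-/-. Gpx5 and Lcn5 passed in neither knockout. Endothelial markers were also lower (6 and 8 of 12), and germ cell and sperm markers were higher (5 and 6 of 7, but 3 in Nicol-/- and 2 in Ros1-/- without Nicol+/- replicate 3, and 3 in Ros1-/- without Nicol+/- replicate 2 or Ros1-/- replicate 2 or 3). In bulk tissue, fewer cells of a type and less RNA per cell cannot be told apart. The ribosomal RNA precursor Rn45s was at 592 to 1185 RPKM in Nicol+/-, 1922 to 2579 in Nicol-/- and 4700 to 17290 in Ros1-/-. The highest value was that of Ros1-/- replicate 3, the library in which Kcnj11 was listed at 0. Whether the tissue or the library preparation set these levels was not tested, and preparation cannot be told apart from genotype here.

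The potassium channel pore gene Kcnj11 and the chloride channel Cftr were the members that fell in both knockouts. Kcnj11 dropped from 17 RPKM to below 1 in every knockout library, and Cftr dropped from 10.1 to 2.39 and 1.99 RPKM. Ano1, the most abundant of the 10, rose in Nicol-/-. A call here means a limma adjusted p under 0.05 in a fit of log2(RPKM + 1) across the 13647 genes that reached 1 RPKM in 3 or more of the 9 libraries. Of the 10 genes, 7 passed that filter and 3 (Abcc8, Scnn1b and Scnn1g) did not. Kcnj11 passed it through its Nicol+/- libraries alone, so its place in the counts of lower genes below was favoured by the filter. In Nicol-/- against Nicol+/-, 2 of 7 were lower, 1 was higher and 4 did not pass the test, where 11.9% of all genes tested were lower and 8.95% higher. In Ros1-/- against Nicol+/-, 2 of 7 were lower and 0 higher (by unadjusted p under 0.05, 3 lower against 3 higher), where 13.3% of all genes were lower and 9.52% higher. Counts this small do not set the 10 genes apart from the rest of the transcriptome, and the results below are those of single genes.

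**Figure D1:**
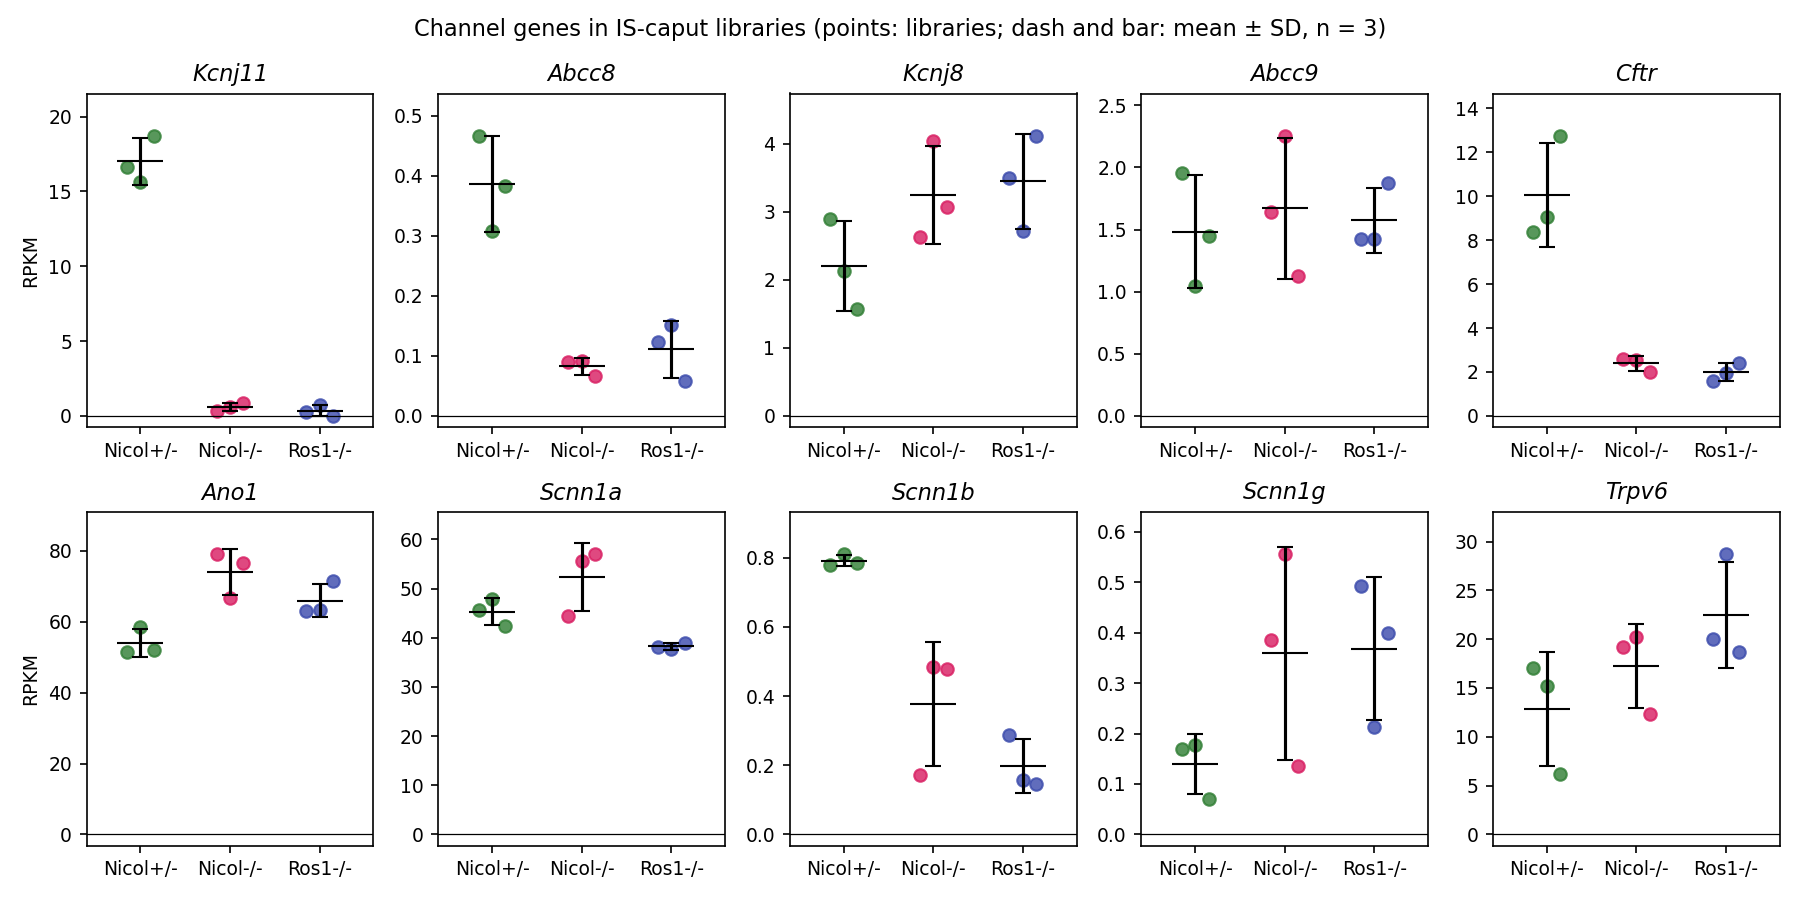
RPKM of the 10 channel genes (vertical axes, each from 0 and each with its own range) in the 3 libraries of each genotype, with the mean and SD (n = 3) as dash and bar. Kcnj11, Abcc8, Cftr and Scnn1b sit lower in all 6 knockout libraries than in all 3 Nicol+/- libraries, and Ano1 sits higher in all 6. Of all 24346 genes, 12.4% were lower without overlap in Nicol-/- and 14.9% in Ros1-/-, and 12.2% and 15% were higher.

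To show the start regions of the chloride channels, which moved in opposite directions in Nicol-/-, 300 bases around an annotated start of each are printed from the RefSeq promoter table (GRCm38.p6, the patch level of the mm10 build the authors mapped to), 250 bases before the start and 50 after it, on the strand of the gene. The capitals mark AGGAAG or its reverse complement CTTCCT, the site bound by PEA3-type ETS factors, a family that in this epithelium lies downstream of ROS1 and ERK in the mouse. The window of Cftr is chr6:18170437-18170736 on the plus strand, that of Ano1 is chr7:144738524-144738823 and that of Trpv6, shown for comparison, is chr6:41636356-41636655, both on the minus strand. The start in the Ano1 window is an internal one, 13453 bases inside the outer limit of the annotated gene, so that window is not at the outermost limit of the gene.
Cftr: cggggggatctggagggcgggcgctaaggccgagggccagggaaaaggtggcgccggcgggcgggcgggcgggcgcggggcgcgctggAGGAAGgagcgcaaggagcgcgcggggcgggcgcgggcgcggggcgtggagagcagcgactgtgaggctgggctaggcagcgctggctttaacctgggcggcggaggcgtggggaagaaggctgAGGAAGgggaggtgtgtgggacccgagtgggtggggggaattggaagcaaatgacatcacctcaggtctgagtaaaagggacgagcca
Ano1: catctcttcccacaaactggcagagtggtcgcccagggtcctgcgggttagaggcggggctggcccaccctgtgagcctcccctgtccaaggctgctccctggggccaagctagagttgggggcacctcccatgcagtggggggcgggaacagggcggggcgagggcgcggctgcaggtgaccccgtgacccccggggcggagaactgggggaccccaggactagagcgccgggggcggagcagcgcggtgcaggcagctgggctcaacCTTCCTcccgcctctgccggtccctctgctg
Trpv6: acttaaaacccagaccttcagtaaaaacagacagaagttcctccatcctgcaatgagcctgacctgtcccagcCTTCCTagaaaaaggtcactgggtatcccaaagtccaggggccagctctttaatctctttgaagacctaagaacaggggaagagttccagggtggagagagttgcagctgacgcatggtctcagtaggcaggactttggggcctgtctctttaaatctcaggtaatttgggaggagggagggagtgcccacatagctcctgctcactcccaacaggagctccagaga
The Cftr window held 2 copies, and the windows of Ano1, Trpv6 and Scnn1b held 1 each. Those of Kcnj8, Abcc9 and Scnn1g held 0. The motif, searched on both strands, was present in 34.9% of 26742 mouse promoter windows of this length. A related core, CCGGAA on either strand, was in 15.3% of them and in none of the 7 windows of these genes. Kcnj11, Abcc8 and Scnn1a were not matched in that table. The Cftr and Ano1 windows were rich in G and C (71.3% and 71.7%), and that of Trpv6 held 51.3%. The presence of these letters is a description and was not tested against the levels below.

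ATP-sensitive potassium channels join a pore of inward rectifier subunits, from Kcnj11 or Kcnj8, to a sulfonylurea receptor, from Abcc8 or Abcc9, and open when ATP falls. Kcnj11 with Abcc8 makes the channel of pancreatic beta cells, and Kcnj8 with Abcc9 that of vascular smooth muscle and pericytes. Kcnj11 (chr7:46097123-46100952, minus strand) was read at 16.7, 15.6 and 18.7 RPKM in the Nicol+/- libraries. In Nicol-/- it was at 0.329, 0.616 and 0.890 RPKM. In Ros1-/- it was at 0.290 and 0.756 RPKM in replicates 1 and 2 and was listed at 0 in replicate 3. The highest knockout library thus lay far under the lowest Nicol+/- library. Of the 13647 tested genes, 20.2% were likewise lower without overlap in Nicol-/- and 23.8% in Ros1-/-. Behind these values stood an estimated 401, 708 and 796 reads in Nicol+/-, 9, 15 and 36 in Nicol-/-, and 11, 32 and 0 in Ros1-/-. A count of 0 in that library allows up to 3 reads, or 0.0993 RPKM, for counting error only.

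The mean of Kcnj11 was 17 ± 1.59 RPKM in Nicol+/- (SD, n = 3), 0.612 ± 0.281 in Nicol-/- and 0.349 ± 0.381 in Ros1-/-, or 27.8-fold and 48.8-fold lower. With single libraries left out the ratio of means ran from 22.6-fold to 36.0-fold in Nicol-/-. In Ros1-/- it ran from 32.5-fold without replicate 3, the library listed at 0, to 117-fold without replicate 2, so the size of that fall rests on few reads. The log2 fold change on the log2(RPKM + 1) scale, which understates changes to low levels, was -3.49 (SE 0.21, limma adjusted p = 6.96e-06) in Nicol-/- and -3.77 (SE 0.21, adjusted p = 3.72e-06) in Ros1-/-. The call held under all 21 alternatives, with adjusted p up to 0.0169 and 0.00665. Kcnj11 passed the filter on low values through its Nicol+/- libraries alone, so a difference was built into its selection for testing. A difference between the knockouts was not detected (-0.28, 95% interval -0.75 to 0.19, adjusted p = 0.541). The 3 tested genes whose profile over the 9 libraries came nearest to that of Kcnj11 were Serinc2, Asb18 and Mrpl37, at root mean square differences of 0.181, 0.203 and 0.239 on the centred log2 scale.

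Abcc8 (chr7:46104523-46180039, minus strand), the receptor subunit that partners Kcnj11, lies 3570 bases from it on the same strand and was expressed at a lower level. It was at 0.467, 0.309 and 0.383 RPKM in Nicol+/-, at 0.0895, 0.0922 and 0.0659 in Nicol-/-, and at 0.123, 0.152 and 0.0578 in Ros1-/-. All 6 knockout libraries were below all 3 Nicol+/- libraries, but they rest on 3 to 11 estimated reads each, against 19 to 28 in Nicol+/-. The knockout means were 21.4% and 28.7% of the Nicol+/- mean. Of all 24346 genes, 12.4% were likewise lower without overlap in Nicol-/- and 14.9% in Ros1-/-. Abcc8 was under the filter, and its exact two-sided permutation p was 0.1 in each knockout, the smallest that 3 libraries a group allow. With the filter lowered to 0.1 RPKM (17169 genes), limma gave -0.36 (SE 0.08, adjusted p = 0.0161) in Nicol-/- and -0.32 (SE 0.08, adjusted p = 0.0225) in Ros1-/-, where 9.26% and 10.5% of genes were lower. Over the 3 fits that included Abcc8 the adjusted p ran from 0.00774 to 0.0161 and from 0.00959 to 0.0225.

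Kcnj8 (chr6:142564837-142571614, minus strand), the vascular-type pore gene, was not lower in any knockout. It was at 2.89, 2.13 and 1.58 RPKM in Nicol+/-, at 2.63, 4.04 and 3.07 in Nicol-/-, and at 3.50, 2.72 and 4.12 in Ros1-/-, and both knockouts overlapped Nicol+/-. The fold changes were 0.42 (95% interval -0.01 to 0.84, adjusted p = 0.151) and 0.48 (0.05 to 0.91, adjusted p = 0.0981) by limma, past the threshold in neither. Abcc9 (chr6:142587862-142702766, minus strand), the receptor that partners Kcnj8 and lies 16247 bases from it, was at 1.96, 1.05 and 1.45 RPKM in Nicol+/-, at 1.64, 2.26 and 1.12 in Nicol-/-, and at 1.43, 1.43 and 1.88 in Ros1-/-. Its libraries overlapped throughout, with fold changes of 0.10 (-0.33 to 0.53, limma adjusted p = 0.742) and 0.06 (-0.36 to 0.49, adjusted p = 0.836). On this scale the intervals leave room for a change of Abcc9 of between -0.36 and 0.53.

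The cells that carry Kcnj8 and Abcc9 were followed by their own markers. None of 8 pericyte markers passed the test in either knockout (1 lower in Nicol-/- and 4 in Ros1-/- at an unadjusted p under 0.05), and their summed level was 45.6 to 59.2 RPKM in Nicol+/-, 44.2 to 63.1 in Nicol-/- and 34.6 to 39.6 in Ros1-/-. Of 9 tested smooth muscle markers, 6 were higher and 1 lower in Nicol-/-, and 2 were lower in Ros1-/-. Without Nicol+/- replicate 2 or 3 or Nicol-/- replicate 1, 3 were higher in Nicol-/-, and without Ros1-/- replicate 1 or 3, 1 was lower in Ros1-/-. Their sum was carried by Actg2, the enteric-type smooth muscle actin, which fell from between 1037 and 1329 RPKM to between 44.3 and 46.3 in Nicol-/- and to between 25.2 and 32 in Ros1-/-. Without Actg2, left out after its values were seen, the other 9 markers summed to 390 to 539 RPKM in Nicol+/-, 706 to 746 in Nicol-/- and 392 to 432 in Ros1-/-. The part of muscle in the values of Kcnj8, Abcc9 and Ano1 was not tested.

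The pore transcripts therefore changed in make-up. Kcnj11 held 85.2%, 88.0% and 92.2% of the summed RPKM of Kcnj11 and Kcnj8 in Nicol+/-, 11.1%, 13.2% and 22.5% in Nicol-/-, and 7.64%, 21.8% and 0% in Ros1-/-. The lowest Nicol+/- share was well above the highest knockout share. The receptor pair was made mostly of Abcc9 everywhere, with Abcc8 at 21% ± 1.76 of the sum in Nicol+/- (SD, n = 3), 4.88% ± 0.847 in Nicol-/- and 6.84% ± 3.45 in Ros1-/-. The Nicol+/- tissue thus held most of its pore transcripts as Kcnj11 and most of its receptor transcripts as Abcc9, a pairing that bulk libraries cannot assign to cells.

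**Figure D2:**
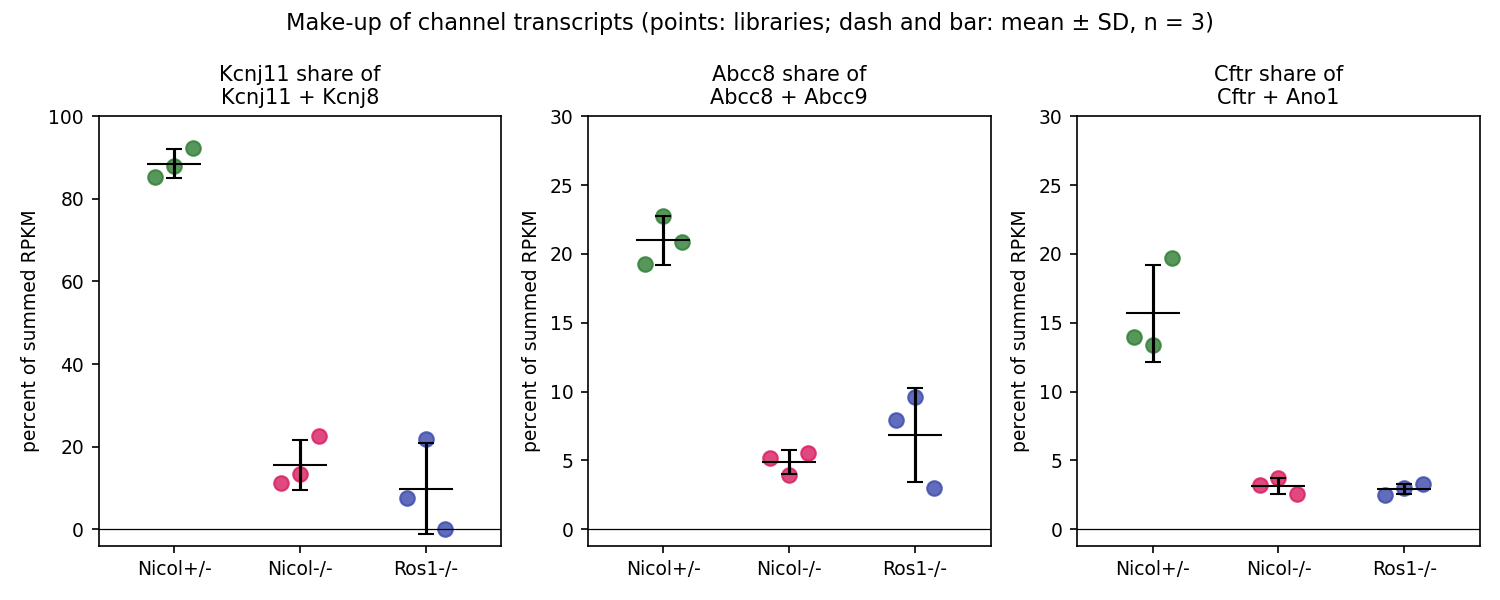
Share of summed RPKM (percent, vertical axes) held by Kcnj11 among the pore genes, by Abcc8 among the receptor genes and by Cftr among the chloride channels Cftr and Ano1, per library, with mean and SD (n = 3). In each panel the 3 Nicol+/- libraries stand above all 6 knockout libraries.

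Cftr (chr6:18170687-18322770, plus strand) encodes the cAMP-activated anion channel that moves chloride and bicarbonate across epithelia and whose loss causes cystic fibrosis. It was at 8.38, 9.04 and 12.8 RPKM in Nicol+/-, at 2.61, 2.56 and 1.99 in Nicol-/-, and at 1.61, 1.94 and 2.41 in Ros1-/-. All 6 knockout libraries were below all 3 Nicol+/- libraries, a separation that 20.2% of the 13647 tested genes showed in Nicol-/- and 23.8% in Ros1-/-. The means were 10.1 ± 2.36, 2.39 ± 0.347 and 1.99 ± 0.403 RPKM (SD, n = 3), or 4.21-fold and 5.05-fold lower. By limma the log2 fold change was -1.69 (SE 0.17, adjusted p = 0.000179) in Nicol-/- and -1.87 (SE 0.17, adjusted p = 7.2e-05) in Ros1-/-, and the call held under all 21 alternatives, with adjusted p up to 0.00373 and 0.00184. Depth was not limiting, with 438 to 1198 estimated reads in Nicol+/- and 143 to 194 in the knockouts. A difference between the knockouts was not detected (-0.18, 95% interval -0.56 to 0.19, adjusted p = 0.621). The tested genes with the nearest profiles were 2810459M11Rik, Igf1r and Gm20939, at root mean square differences of 0.125, 0.13 and 0.134.

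Ano1 (chr7:144588549-144752026, minus strand), the calcium-activated chloride channel of secretory epithelia and of smooth muscle, went the other way. It was at 51.5, 58.6 and 52.0 RPKM in Nicol+/-, at 79.1, 66.8 and 76.6 in Nicol-/-, and at 63.1, 63.4 and 71.5 in Ros1-/-. Every knockout library was above every Nicol+/- library, as were 12.2% of all 24346 genes in Nicol-/- and 15% in Ros1-/-. Among the 13647 genes tested, these shares were 17.5% and 22.5%. The rise was 0.45 (SE 0.09, limma adjusted p = 0.0103) in Nicol-/-, from a mean of 54.1 ± 3.97 to 74.2 ± 6.5 RPKM (SD, n = 3). Deviations of same-numbered Nicol+/- and Nicol-/- libraries correlated weakly (0.103 to 0.243). Differently numbered libraries of Nicol-/- and Ros1-/- reached 0.242, so the numbers do not establish a pairing. With the replicate number as a block, the limma adjusted p was 0.0205 over 9 libraries and 0.0609 over the 6 compared. The call was lost in that smallest fit, where the adjusted p was highest. Over the 21 alternatives the adjusted p ran from 0.00365 to 0.0609. In Ros1-/- the value was 0.28 (SE 0.09, adjusted p = 0.0549), from 54.1 to 66.0 ± 4.75 RPKM, just short of the threshold, and over alternatives the adjusted p ran from 0.0357 to 0.17. Without Nicol+/- replicate 2 it was 0.0467 and without Nicol-/- replicate 2 it was 0.0419. A difference between the knockouts was not detected (-0.16, 95% interval -0.37 to 0.04, adjusted p = 0.401). The nearest profiles were those of Spsb1, Nedd9 and E130309D14Rik, at 0.0535, 0.0636 and 0.07.

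With Cftr lower and Ano1 higher, the Cftr share of their summed RPKM went from 15.7% ± 3.5 in Nicol+/- (SD, n = 3) to 3.14% ± 0.585 in Nicol-/- and 2.91% ± 0.392 in Ros1-/-. The sum itself was not lower. It was 59.9 to 67.7 RPKM in Nicol+/-, 69.4 to 81.7 in Nicol-/- and 64.7 to 73.9 in Ros1-/-. On the level per length, the sum of Cftr and Ano1 was therefore mostly Ano1 in every genotype. Other chloride channel genes were not part of this sum. Of these, Ttyh3 alone was at 85.78, 101.2 and 75.45 RPKM in the Ros1-/- libraries.

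**Figure D3:**
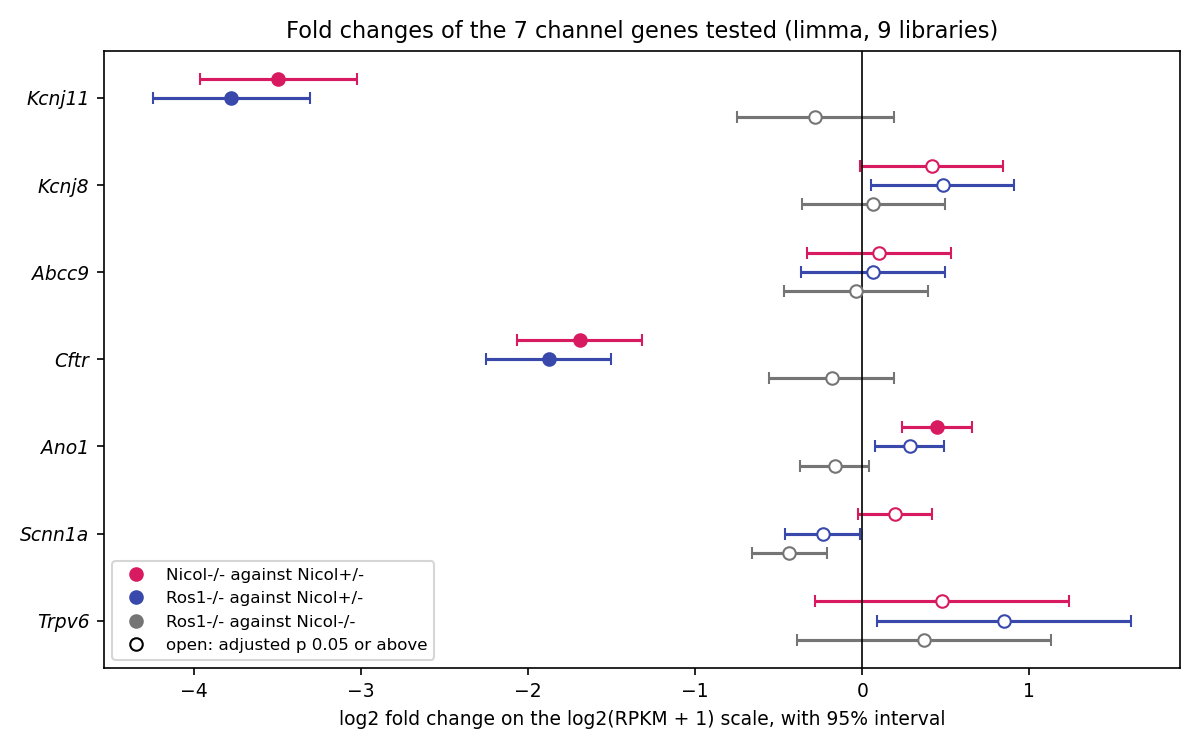
Log2 fold change on the log2(RPKM + 1) scale with its 95% interval (horizontal axis) for the 7 channel genes tested, by comparison. Filled points passed a limma adjusted p of 0.05: Kcnj11 and Cftr lower in both knockouts, and Ano1 higher in Nicol-/-, while no gene passed between the knockouts. Kcnj11 entered the test through its Nicol+/- libraries alone.

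The epithelial sodium channel takes sodium from the lumen through alpha, beta and gamma subunits, encoded by Scnn1a, Scnn1b and Scnn1g. Scnn1a (chr6:125314271-125344943, plus strand) was by far the most abundant, at 45.6, 48.0 and 42.4 RPKM in Nicol+/-, at 44.5, 55.5 and 57.0 in Nicol-/-, and at 38.1, 37.7 and 38.9 in Ros1-/-. The 3 Ros1-/- libraries lay close together below the other 6, and Nicol-/- overlapped Nicol+/-. Between the knockouts, 8.86% of all 24346 genes and 12% of the 13647 tested were lower without overlap. By limma the fold change was 0.20 (95% interval -0.02 to 0.42, adjusted p = 0.184) in Nicol-/- and -0.24 (-0.46 to -0.01, adjusted p = 0.115) in Ros1-/-. The direct comparison of Ros1-/- with Nicol-/- gave -0.44 (-0.66 to -0.21, adjusted p = 0.064), just short of the threshold. Nicol-/- replicate 1 decided some of this: without it, the adjusted p was 0.0378 in Nicol-/- (range over alternatives 0.0378 to 0.424) and 0.0488 in Ros1-/- (0.0404 to 0.26).

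Scnn1b (chr7:121865038-121918728, plus strand) was at 0.780, 0.811 and 0.784 RPKM in Nicol+/-, at 0.171, 0.484 and 0.478 in Nicol-/-, and at 0.286, 0.158 and 0.147 in Ros1-/-. Every knockout library of Scnn1b was below every Nicol+/- library, on 4 to 19 estimated reads against 17 to 33. Of all 24346 genes, 12.4% were likewise lower without overlap in Nicol-/- and 14.9% in Ros1-/-. The Nicol+/- libraries agreed closely, but on so few reads that agreement may be chance and is no measure of precision. The means were 47.7% and 24.9% of that in Nicol+/-. It was under the filter, and the exact two-sided permutation p was 0.1 in each knockout, the smallest possible. At the lower filter limma gave -0.39 (SE 0.11, adjusted p = 0.0418) and -0.58 (SE 0.11, adjusted p = 0.00696). Over the 3 fits that included it, the adjusted p ran from 0.0418 to 0.135 in Nicol-/- and from 0.00696 to 0.0319 in Ros1-/-, so the call in Nicol-/- depended on the filter.

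Scnn1g (chr7:121734420-121768482, plus strand), next to Scnn1b on the chromosome at 96555 bases, was the lowest of the 10 in Nicol+/-, at 0.169, 0.177 and 0.0707 RPKM. It was at 0.385, 0.556 and 0.136 in Nicol-/- and at 0.493, 0.214 and 0.398 in Ros1-/-, on 3 to 21 estimated reads per library. It was under the filter, and at the lower filter its fold changes were 0.24 (limma adjusted p = 0.226) and 0.26 (adjusted p = 0.2), so no difference was detectable at this depth. Scnn1a made up 98.0%, 98.6% and 98.5% of the summed RPKM of the 3 subunit genes in Nicol+/-, Nicol-/- and Ros1-/- on average.

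Trpv6 (chr6:41620619-41636405, minus strand), the apical calcium-selective channel, varied widely between libraries of a genotype. It was at 17.04, 15.2 and 6.21 RPKM in Nicol+/-, at 19.2, 20.2 and 12.4 in Nicol-/-, and at 19.99, 28.7 and 18.7 in Ros1-/-. Nicol-/- overlapped Nicol+/-, while all 3 Ros1-/- libraries were above all 3 Nicol+/- libraries, as were 15% of all 24346 genes and 22.5% of the 13647 tested. The fold changes were 0.48 (95% interval -0.28 to 1.24, limma adjusted p = 0.341) and 0.85 (0.09 to 1.61, adjusted p = 0.102), past the threshold in neither. Replicate 3 was the lowest library of each genotype. With single libraries left out the fold change ran from 0.063 to 0.72 in Nicol-/- and from 0.43 to 1.09 in Ros1-/-, the lower value in each coming without Nicol+/- replicate 3. The intervals are wide, and a rise of more than 1 on the log2 scale fits inside both. Trpv5, the paralog next to it (15255 bases away), was listed at 0 in Nicol+/- and Ros1-/- and reached at most 0.0889 RPKM in Nicol-/-, so the pair was represented by Trpv6.

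In order of level per length, Nicol+/- tissue held Ano1 (54.1 RPKM), Scnn1a (45.3), Kcnj11 (17), Trpv6 (12.8), Cftr (10.1), Kcnj8 (2.2), Abcc9 (1.48), Scnn1b (0.792), Abcc8 (0.386) and Scnn1g (0.139). In this order, libraries of Kcnj11 overlapped those of Trpv6, those of Trpv6 overlapped Cftr and those of Kcnj8 overlapped Abcc9, and the other neighbours did not overlap. In the knockouts Ano1 and Scnn1a kept ranks 1 and 2, Trpv6 moved to rank 3 and Kcnj8 to rank 4 ahead of Cftr. Kcnj11 moved from rank 3 to rank 7 in Nicol-/- and rank 8 in Ros1-/-, where its libraries overlapped those of Scnn1b.

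Between the knockouts, 0 of the 7 tested genes passed (1 lower at an unadjusted p under 0.05, Scnn1a), where 1.55% of all genes did. The intervals for that difference were narrowest for Ano1 (-0.37 to 0.04) and widest for Trpv6 (-0.39 to 1.13). That of Scnn1a (-0.66 to -0.21) did not include 0, and that of Kcnj11 (-0.75 to 0.19) is on a scale that understates changes at low levels. These intervals do not show that the knockouts were alike, least of all for Trpv6.

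The 10 genes lie on chromosomes 6 and 7, and 3 pairs are adjacent: Kcnj11 and Abcc8, Kcnj8 and Abcc9, and Scnn1g and Scnn1b. The annotated genes on either side of each were read beside them. On 1 side of Kcnj11, Nomo1 (12910 bases away) was at a mean of 26.2, 22.2 and 19.8 RPKM in Nicol+/-, Nicol-/- and Ros1-/-, with fold changes of -0.23 (limma adjusted p = 0.106) and -0.40 (adjusted p = 0.0157, lost under 3 alternatives). On the far side of Abcc8, Ush1c (15310 bases) was at 0.804, 2.66 and 1.30 RPKM, higher in Nicol-/- (1.005, adjusted p = 0.0295), a call lost under 6 alternatives. Neither neighbour fell as Kcnj11 did. Cftr differed in this respect. Its neighbour Cttnbp2, a cortactin-binding protein gene at 43700 bases, was at 8.61 ± 0.909 RPKM in Nicol+/- (SD, n = 3), 1.13 ± 0.344 in Nicol-/- and 1.03 ± 0.169 in Ros1-/-. Its fold changes were -2.18 (SE 0.15, limma adjusted p = 1.54e-05) and -2.24 (SE 0.15, adjusted p = 1.02e-05), lower under all 21 alternatives. Asz1, on the other side of Cftr at 61625 bases, was at 0.153 to 0.298 RPKM in Nicol+/-, at 0.0695 to 0.143 in Nicol-/- and listed at 0 in Ros1-/-.

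**Figure D4:**
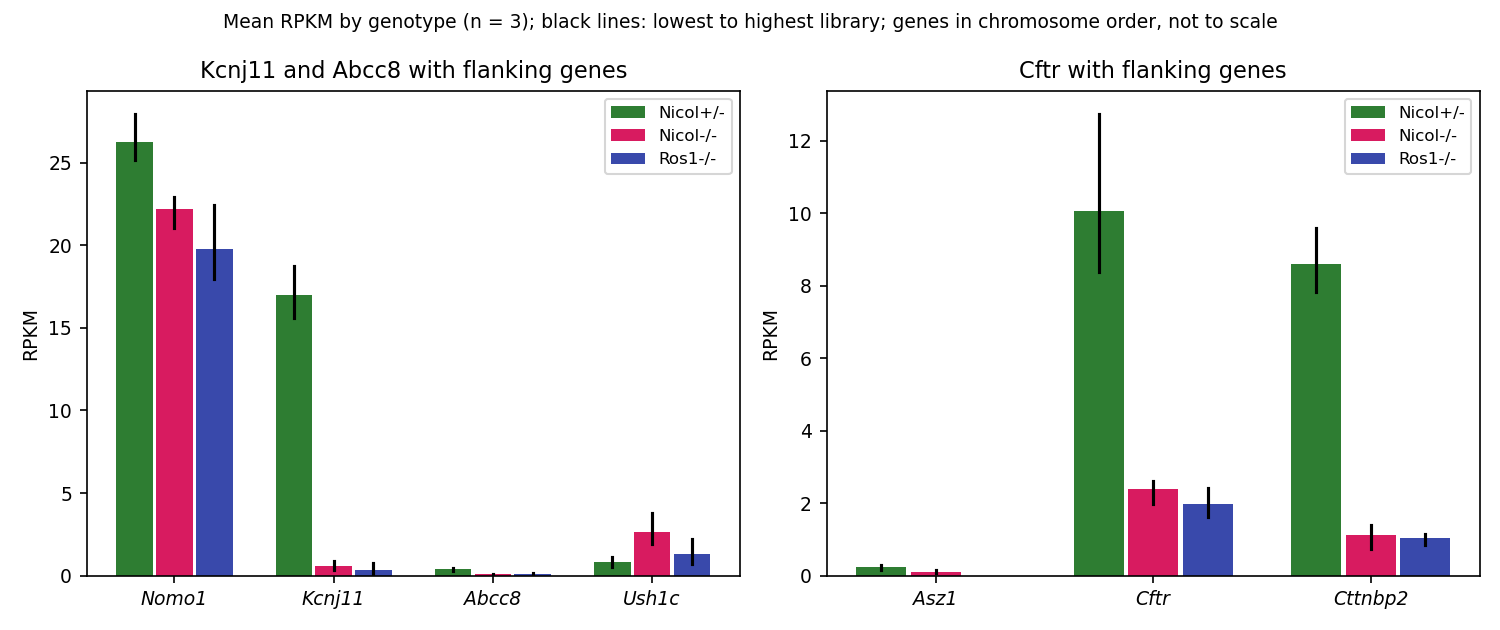
Mean RPKM (vertical axes) of Kcnj11, Abcc8 and Cftr with the annotated genes on either side, by genotype (n = 3), with black lines from the lowest to the highest library and genes in chromosome order, not to scale. Kcnj11 drops between Nomo1, whose mean is lower to a much smaller extent, and Ush1c, whose mean is not lower in either knockout. Cftr and Cttnbp2 are both low in the knockouts.

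Around the remaining members, the neighbours of Scnn1a were those that moved. Next to Scnn1a, Tnfrsf1a (4779 bases) was lower in both knockouts, at a mean of 47.7, 32.7 and 33.5 RPKM, with -0.53 (limma adjusted p = 0.00134) and -0.49 (adjusted p = 0.00172). Ltbr (385 bases on the other side) was at 57.5, 47.8 and 45.4 RPKM, with -0.27 (adjusted p = 0.088) and -0.34 (adjusted p = 0.0438), the last lost under 8 alternatives. The other tested neighbours, Ephb6, Ldhb, Cmas, Usp31, Cog7 and Fadd, had limma adjusted p of 0.0549 or more in both knockouts. Reads of overlapping genes may be shared: annotated genes overlap Cftr, Ano1, Abcc8, Abcc9, Scnn1g and Trpv6, and strand use in the authors' counting was not given in the sources used here.

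Genes that work with these channels were counted from 7 lists. The counts are to be read beside the 11.9% of all genes tested that were lower and the 8.95% that were higher in Nicol-/-, and the 13.3% and 9.52% in Ros1-/-. Most moved when single libraries were left out. Shifts of over 1.5 times are given after each list, and smaller ones are not all given. Of 26 other chloride channel genes tested, Nicol-/- had 2 lower and 3 higher, Ros1-/- had 2 lower and 4 higher. Without Nicol+/- replicate 2 there were 4 lower in Nicol-/-, and without Nicol+/- replicate 3 or Ros1-/- replicate 1 there was 1 lower in Ros1-/-. The number higher ran from 2 to 3 in Nicol-/- and from 3 to 4 in Ros1-/-. Ttyh1, a tweety-family channel protein, fell from 9.86 ± 1.68 RPKM to 1.69 ± 0.63 and 1.83 ± 0.782 (SD, n = 3), and Lrrc8c, a subunit of the volume-regulated anion channel, rose from 10.9 to 16.9 and 17.5. Of 13 CFTR partners and coupled anion transporters, Nicol-/- had 3 lower and 2 higher, Ros1-/- had 3 lower and 1 higher, with 2 higher in Ros1-/- without Nicol+/- replicate 2 or Nicol-/- replicate 1. With single libraries left out, the number lower ran from 2 to 3 in Nicol-/- and from 2 to 4 in Ros1-/-. Among those that fell, Gopc, a Golgi protein that sends CFTR to lysosomes, went from 68.6 ± 14 RPKM to 11.4 ± 0.277 and 11.9 ± 0.184 (-2.47 and -2.41, limma adjusted p = 1.86e-06 and 2e-06). Ezr, the ezrin that tethers CFTR at the apical membrane, went from 321 to 171 and 192 RPKM. P2ry2, a receptor for luminal ATP, rose from 1.55 to 4.33 RPKM in Nicol-/-, and was at 2.94 in Ros1-/- (adjusted p = 0.0507).

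Of 39 other potassium channel and channel subunit genes tested, Nicol-/- had 11 higher and 2 lower, Ros1-/- had 8 higher and 2 lower. The number higher ran from 6 to 12 in Nicol-/- when single libraries were left out, with 6 without Nicol+/- replicate 3, and from 5 to 8 in Ros1-/-, with 5 without Ros1-/- replicate 1. The median fold change of this list was 0.39 and 0.25, beside 0.00 and 0.01 over all genes tested. Kcna1, a voltage-gated channel, rose from 4.66 to 8.15 and 11.2 RPKM. Kcne3, a beta subunit that joins the basolateral potassium channel of chloride-secreting cells, rose from 13.3 to 25 and 34.1. Kcnk2, a mechanically gated background channel, fell from 5.0 to 3.0 and 2.25 RPKM.

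Of 17 regulators of the epithelial sodium channel tested, Nicol-/- had 3 lower and 5 higher, Ros1-/- had 4 lower and 5 higher. These counts rested on single libraries. The number higher in Nicol-/- was 2 without Nicol+/- replicate 3 and 3 without any 1 of the 6 knockout libraries. The number higher in Ros1-/- was 1 without Ros1-/- replicate 1 or 3, 2 without Ros1-/- replicate 2 or Nicol+/- replicate 3, and it rose to 8 when Nicol-/- replicate 3 was left out. The number lower in Ros1-/- was 2 without Nicol+/- replicate 3 or Ros1-/- replicate 1 or 3. St14, a channel-activating protease, fell from 79.6 to 52.5 and 52.1 RPKM, and Nr3c2, the mineralocorticoid receptor, fell from 2.94 to 1.66 and 1.19, a call in Nicol-/- (adjusted p = 0.0346) that reached 0.123 under an alternative. Usp2, a deubiquitinase that stabilises the channel, rose from 14.2 to 25.3 and 24.0. Of 10 other TRP channel genes tested, 0 were lower (1 in each knockout at an unadjusted p under 0.05 by limma) and 1 was higher in each knockout, Pkd2l1, from 2.24 to 7.28 and 14.4 RPKM. With single libraries left out, 0 or 1 were lower and 1 or 2 higher in each knockout. In Nicol-/- 1 was lower when Nicol+/- replicate 2 or Nicol-/- replicate 1 was dropped, and 2 were higher when Nicol-/- replicate 2 was. In Ros1-/- 1 was lower when replicate 1 or 3 of Nicol-/- or replicate 2 of Nicol+/- or of Ros1-/- was dropped, and 2 were higher without Nicol-/- replicate 3.

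Of 16 partners of TRPV6 and other calcium transporters, Nicol-/- had 2 lower and 3 higher, Ros1-/- had 2 lower and 0 higher (by limma's unadjusted p under 0.05, 2 higher). The number higher in Nicol-/- dropped to 0 when Nicol+/- replicate 2 or Nicol-/- replicate 1 was left out and to 1 when Nicol+/- replicate 3 or Nicol-/- replicate 2 was, and the number lower there was 1 without any single library other than Nicol-/- replicate 3. In Ros1-/- 1 was lower without Nicol+/- replicate 2 or 3 or any Ros1-/- library, and 1 was higher without Nicol+/- replicate 1 or Nicol-/- replicate 2 or 3. S100g, the calcium buffer calbindin of absorbing cells, rose from 2.01 to 4.41 RPKM in Nicol-/- and was at 3.45 in Ros1-/- (adjusted p = 0.0927). The call of S100g in Nicol-/- (adjusted p = 0.0264) reached 0.0884 under an alternative. Of 16 genes of the sodium pump and the cation-chloride cotransporters, Nicol-/- had 2 lower and 3 higher, Ros1-/- had 1 lower and 0 higher (by limma's unadjusted p under 0.05, 4 lower against 0). The number lower in Nicol-/- was 0 without Nicol-/- replicate 2 and 1 without any Nicol+/- library, Nicol-/- replicate 1 or Ros1-/- replicate 1. With single libraries left out, the number higher in Nicol-/- ran from 2 to 4. Fxyd3, a pump regulator of epithelia, fell from 82.5 ± 28.3 RPKM to 44.2 ± 7.75 and 37.1 ± 4.5 (SD, n = 3), with adjusted p of 0.0339 and 0.0112 that reached 0.116 and 0.0554 under an alternative. Fxyd1, a pump regulator of muscle, rose in Nicol-/- from 23.3 to 37.3 RPKM, beside the smooth muscle markers that were higher there.

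**Figure D5:**
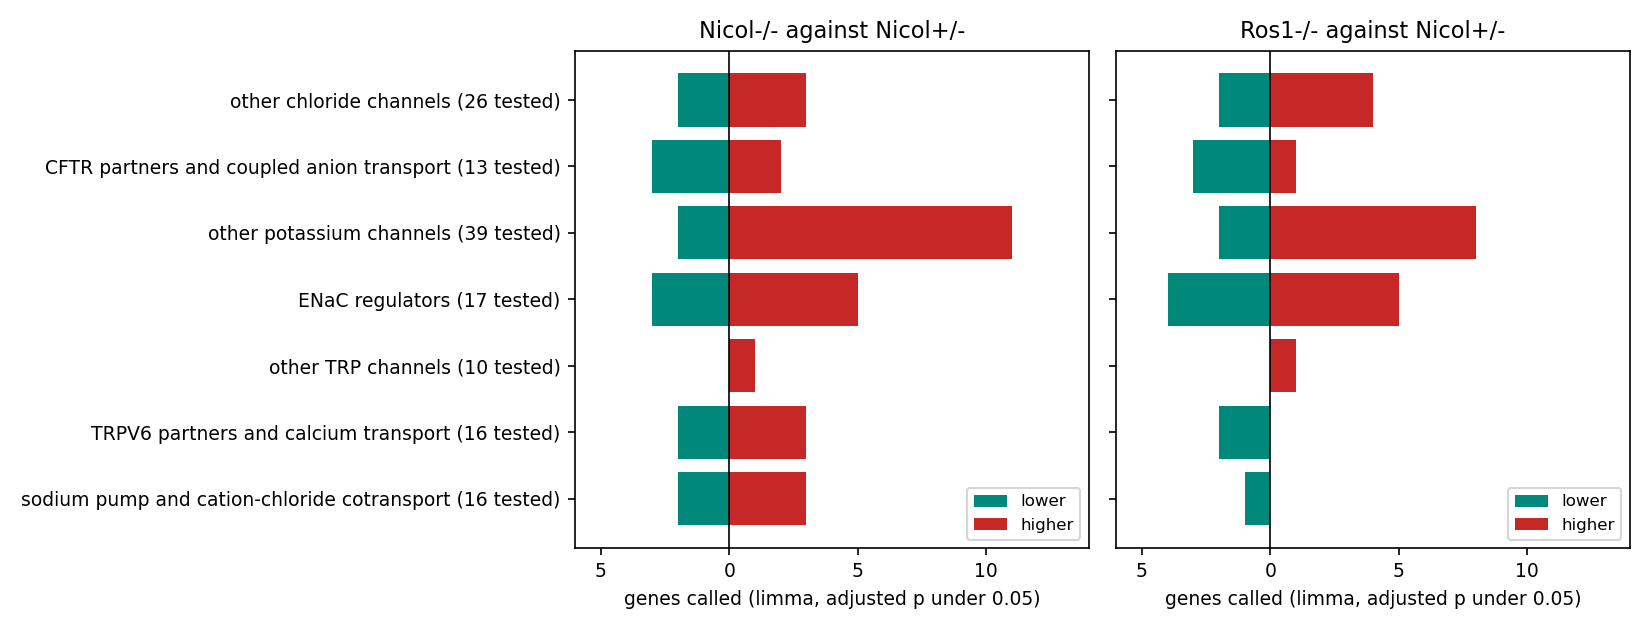
Number of genes called lower (to the left) and higher (to the right) by limma at an adjusted p under 0.05 in each of 7 lists of related genes, by knockout against Nicol+/-. The longest bars are those of the largest list, the 39 other potassium channel and subunit genes, 11 higher in Nicol-/- and 8 in Ros1-/-. Of all genes tested, 8.95% and 9.52% were higher, and 11.9% and 13.3% lower. By share called in either direction, the sodium channel regulators stood higher (47.1% and 52.9%) than the potassium list (33.3% and 25.6%), beside 20.9% and 22.8% of all genes.

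Markers of the epithelial cells that could carry these channels were read beside them. Of 7 tested markers of clear and narrow cells, which secrete protons into the lumen, 1 was lower and 2 were higher in each knockout (1 higher in Nicol-/- without Nicol+/- replicate 1 or 3 or Nicol-/- replicate 1 or 2, and 0 or 1 in Ros1-/- without any Nicol+/- or Ros1-/- library or Nicol-/- replicate 1, with 0 without Ros1-/- replicate 1), and their summed level was 112 to 127 RPKM in Nicol+/-, 128 to 150.5 in Nicol-/- and 121 to 133.5 in Ros1-/-. None of 6 basal cell markers passed in Nicol-/- and 1 was lower in Ros1-/-, a call lost without any 1 of the Nicol+/- or Ros1-/- libraries (1 lower in each at an unadjusted p under 0.05 by limma), with sums of 137 to 147, 118 to 172 and 95.2 to 152 RPKM. The sum over the principal cell markers was lower, from between 59250 and 78860 RPKM in Nicol+/- to between 38070 and 45970 in Nicol-/- and between 48170 and 52220 in Ros1-/-. That fall was not shared by all of them. Lcn8 fell by -11.06 and -11.28 on the log2 scale, while Gpx5 changed by -0.18 and -0.06 (limma adjusted p = 0.681 and 0.9). Lcn5 changed by 0.95 and 1.42 (limma adjusted p = 0.221 and 0.0792). The sum therefore does not describe principal cells as a whole. Ciliated cell markers of the efferent duct, which joins the initial segment, were higher in Nicol-/- (4 of 5, but 1 without Nicol+/- replicate 1 or 3 and 2 without Nicol-/- replicate 3 or any Ros1-/- library), and 0 of 5 passed in Ros1-/-, by limma's adjusted or unadjusted p under 0.05, a difference between the knockouts that was not tested for the list. No defining marker of these lists was at 0 in all libraries. The part of cell make-up in the falls of Kcnj11 and Cftr was not tested.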

How the data were processed

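RNA from mouse IS-caput epididymis (3 Nicol+/-, 3 Nicol-/- and 3 Ros1-/- libraries) was sequenced after a stranded mRNA kit. Per the labels, the authors mapped reads to mm10 with TopHat2 2.1.1 and calculated values with Cufflinks 2.2.1. The deposited table gives a normalized FPKM per gene and library, equal to RPKM because the reads were single-ended, and a normalized count, a signal the authors had scaled between libraries (sums of 11985015 to 13358623). Annotation and treatment of multiply matching reads: not given in the sources used here. Between 98.2% and 98.6% of normalized counts were whole multiples (within 0.02 of a read) of a step per library, and the step gave the estimated reads. Since not all values were whole, no count model was used. Per-gene reads are estimates and limit precision for low genes.

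limma 3.58.1 (R 4.3.3) was fitted to log2(RPKM + 1) of the 13647 genes that reached 1 RPKM in 3 or more of 9 libraries, with 3 group means, a mean-variance trend, 6 residual degrees of freedom and Benjamini-Hochberg adjustment at 0.05, two-sided. On data simulated for Nicol-/- against Nicol+/- over 13647 genes, it called 83 of 100 genes given a log2 change of 1, 100 of 100 given a change of 2 and 7 of 13447 unchanged genes. The simulated data held far fewer changed genes than the 2849 called in the real comparison, so these rates may differ from those of the fit reported. The members, gene lists and tests were chosen with earlier results of these data known. Named genes are the 10 members, up to 3 called genes per list with the smallest p and the first going the other way, the 3 nearest profiles of each called member, and flanking genes. Some genes so chosen are not reported here. The list of other potassium channel genes holds every remaining Kcn symbol, auxiliary subunits included, less antisense and overlapping transcripts (symbols ending in os or ot), which were left out after their values were seen. Deviations of same-numbered Nicol+/- and Nicol-/- libraries correlated across genes at 0.194, 0.103 and 0.243, which is the ground for the replicate block there. Differently numbered libraries of these genotypes correlated at -0.198 to 0.0598. Nicol-/- replicate 1 and Ros1-/- replicate 2 reached 0.242, so correlations of this size also arose without a shared number. Correlations between libraries of a genotype were 0.966 to 0.99, and no library was a copy of another. Alternatives were other pseudocounts, filters, scalings, the normalized count, a robust variance, 6 libraries alone, a replicate block and each library left out. Positions and promoter windows come from RefSeq tables of GRCm38.p6, and 7 of 10 members had a window. Figures were drawn with matplotlib 3.10.9.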

Additional observations from a re-analysis of the deposited data

How the results depend on the processing

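Kcnj11 and Cftr were lower in both knockouts under all 21 alternatives. Most of these kept the filter that Kcnj11 passed through its Nicol+/- libraries alone. With no filter, its limma adjusted p was 0.000488 in Nicol-/- and 0.000309 in Ros1-/-. With the filter at 0.1 RPKM, 4 channel genes were lower in Nicol-/- and 4 in Ros1-/- instead of 2 each, since Abcc8 and Scnn1b entered the test, and 4 were lower in Ros1-/- with no filter, also with a pseudocount of 0.1. The number higher in Nicol-/- fell from 1 to 0 with the replicate block within 6 libraries and ran from 1 to 2 when libraries were left out. The number higher in Ros1-/- rose from 0 to 1 with quantile normalization and with the 6 libraries alone (Ano1), and with the replicate block over 9 or 6 libraries (Trpv6, adjusted p = 0.0211 and 0.0488), and ran from 0 to 1 when libraries were left out. Same-numbered libraries of Ros1-/- correlated at -0.0439 to 0.0967 with Nicol+/- and at -0.0911 to 0.129 with Nicol-/-, so a number there is no pairing. With normalized counts, 1 gene, Scnn1a, was lower in Ros1-/- than in Nicol-/- (limma adjusted p = 0.0495, range over alternatives 0.0495 to 0.212). The block changed no other call of a member. Apart from the entry of genes at lower filters, the cause of these shifts was not tested.

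Uncalled log2 fold changes turned sign when libraries were left out: Abcc9 ran from -0.053 to 0.256 in Nicol-/-, from -0.0677 to 0.198 in Ros1-/- and from -0.191 to 0.117 between the knockouts (0.0427 under quantile normalization), and Kcnj8 ran from -0.0404 to 0.198 between the knockouts. Of all genes tested, 1628 were lower and 1221 higher in Nicol-/-, against 1083 and 649 with the 6 libraries alone, 981 and 749 with the block within them, and 672 higher with no filter (631 with a pseudocount of 0.1 as well). In Ros1-/-, 1810 were lower and 1299 higher, against 794 higher with no filter (767 with a pseudocount of 0.1 as well). Between the knockouts, 157 were lower and 55 higher, against 48 and 29 with no filter (32 and 29 with a pseudocount of 0.1 as well), 60 and 24 with 6 libraries and 7 and 8 with the block within them. Leaving out Nicol+/- replicate 3 took the Nicol-/- counts to 954 and 518 and the Ros1-/- counts to 1134 and 657, and leaving out Ros1-/- replicate 1 took the latter to 1099 and 554. Of the counts for the lists, 228 moved by over 1.5 times and 1914 did not. The Nicol-/- calls of Lrrc8e, Kcne3, Kcnk2, Nr3c2, Slc8a1, S100g, Fxyd3 and Fxyd1 and the Ros1-/- call of Fxyd3 were lost under at least 1 alternative. The test on whole reads was not run, because 98.2% to 98.6% of the normalized counts, and not all of them, were whole multiples of the step. Genes under about 1 RPKM rest on few reads, which limits Abcc8, Scnn1b and Scnn1g.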
